A study of Mus musculus with 2 samples.

Results

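The genes of fatty acid synthesis, triglyceride storage, fatty acid oxidation, fatty acid uptake and lipoprotein assembly were followed along the liver lobule and between hepatocytes with and without a p16 reporter. The set was a given list of 43 genes, named by their roles with no measured value in the rule, but drawn up when earlier results of these data were known. Of these, 42 matched 1 of the 19073 features of the matrices by symbol, and Mttp was not analysed here. They were grouped into 3 genes that control transcription, 11 of fatty acid synthesis, elongation and desaturation, 10 of triglyceride synthesis, storage and lipolysis, 10 of oxidation and ketone bodies, 2 of uptake and binding, and 7 of lipoproteins.

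Hepatocytes came from livers of male p16-Tom mice, in which p16-CreERT2 and a floxed-stop tdTomato cassette make cells that transcribe p16Ink4a at the time of tamoxifen permanently red. Both groups carried the same alleles and had received CCl4, a centrilobular liver toxin, for 4 weeks together with tamoxifen, so untreated liver is not part of the comparison. Fixed tissue was dissociated, cells positive for a nuclear and a mitochondrial dye were sorted into a reporter-negative (Tom-, p16low in the labels) and a reporter-positive (Tom+, p16high) fraction, and each fraction gave 1 single-cell library made with a probe-based kit. The label marks past activity of the p16-driven recombinase and not the present p16 level. By qPCR the study found more p16Ink4a mRNA in Tom+ than in Tom- hepatocytes collected days after the last CCl4 dose. How many mice were pooled is not given in the sources used here. With 1 library per group there was no replicate and no test, so a difference is one between 2 libraries rather than between conditions, and intervals (95%) cover counting error only.

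After filtering, 10904 Tom- and 9967 Tom+ hepatocytes remained, with medians of 32280 and 35383 UMIs (unique molecular identifiers, 1 per captured probe product). The libraries shared 503 barcodes, 146 of them among the hepatocytes, and leaving those out did not change any count of members along the lobule or between libraries. At matched lobule position tdTomato stood at 82.0 CPM in Tom- and 793 CPM in Tom+ hepatocytes outside the clusters described next (CPM, the gene's share of all UMIs in a sum of cells, scaled to the same total in each). A pair of hepatocyte clusters was nearly all Tom+ and held 74 Tom- cells (0.679%) and 2002 Tom+ cells (20.1%). One carried central landmark genes and was led by H2-Q1 (38 Tom- and 1532 Tom+ cells). The other carried portal landmark genes and was led by Orm3 (36 and 470 cells). The clock output gene Dbp was among the leading genes of both, and the members' ratios between libraries are given with and without this pair. The hepatocytes also held a cluster led by collagen genes (277 Tom- and 194 Tom+ cells) and one led by duct genes such as Krt19 and Epcam (49 and 15 cells). Leaving both out brought Cd36 just over the limit used below, at 0.301.

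In the liver lobule, blood runs from portal vessels to a central vein, and hepatocytes differ in function along that path. The liver makes fatty acids from citrate through acetyl-CoA and malonyl-CoA, esterifies them to triglycerides, and either stores these in droplets or exports them on lipoproteins that carry apolipoprotein B. In fasting it burns fatty acids in mitochondria and peroxisomes and turns part of the product into ketone bodies, a programme driven by the nuclear receptor PPARα, while SREBP1c and ChREBP drive the synthetic genes after feeding.

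RefSeq start sites (GRCm38.p6) were found for 37 of the 43 genes, 10 of them with more than 1 start. The stretch before the start is printed for the genes on which the results below turn: Acly and Fasn, synthetic enzymes with a steep and a shallower fall towards the centre, Acot1 and Apoa1, which rose most in that direction, Elovl6, which had the highest Tom+ ratio among members with enough counts, and Fabp1, which had the lowest. Each stretch runs 5′ to 3′ on the gene's strand and stops at the RefSeq start or at the GENCODE M21 start, whichever comes first. Capitals mark GGGCGG (the GC box) in Acly and Acot1, CCAAT in Fasn and Acot1, and in Fabp1 a direct repeat of nuclear receptor half-sites with 1 base between, on either strand.
Acly, chr11:100528001-100528250, minus strand: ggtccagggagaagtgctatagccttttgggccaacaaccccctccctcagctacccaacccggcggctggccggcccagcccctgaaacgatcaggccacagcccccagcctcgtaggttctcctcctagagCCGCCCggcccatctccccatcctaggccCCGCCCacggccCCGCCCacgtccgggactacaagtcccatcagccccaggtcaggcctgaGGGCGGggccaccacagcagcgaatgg
Fasn, chr11:120824548-120824797, minus strand: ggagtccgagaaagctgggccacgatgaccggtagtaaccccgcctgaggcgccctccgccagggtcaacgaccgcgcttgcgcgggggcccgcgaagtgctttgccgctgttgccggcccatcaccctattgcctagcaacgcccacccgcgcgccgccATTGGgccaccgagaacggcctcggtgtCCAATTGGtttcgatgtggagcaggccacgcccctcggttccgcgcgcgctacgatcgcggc
Acot1, chr12:84009252-84009489, plus strand: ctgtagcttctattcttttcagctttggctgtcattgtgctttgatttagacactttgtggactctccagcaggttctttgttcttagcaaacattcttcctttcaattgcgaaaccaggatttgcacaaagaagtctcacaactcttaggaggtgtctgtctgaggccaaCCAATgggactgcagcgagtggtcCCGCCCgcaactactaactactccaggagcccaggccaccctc
Apoa1, chr9:46228380-46228579, plus strand: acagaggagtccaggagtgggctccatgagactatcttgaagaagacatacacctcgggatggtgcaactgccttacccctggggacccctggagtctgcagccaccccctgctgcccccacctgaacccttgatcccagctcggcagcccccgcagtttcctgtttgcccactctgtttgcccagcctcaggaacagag
Elovl6, chr3:129532136-129532354, plus strand: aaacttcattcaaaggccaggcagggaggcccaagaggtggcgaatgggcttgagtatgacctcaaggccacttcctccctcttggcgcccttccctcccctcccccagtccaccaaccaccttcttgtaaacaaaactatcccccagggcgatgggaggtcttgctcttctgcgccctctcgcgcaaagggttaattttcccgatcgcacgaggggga
Fabp1, chr6:71199629-71199826, plus strand: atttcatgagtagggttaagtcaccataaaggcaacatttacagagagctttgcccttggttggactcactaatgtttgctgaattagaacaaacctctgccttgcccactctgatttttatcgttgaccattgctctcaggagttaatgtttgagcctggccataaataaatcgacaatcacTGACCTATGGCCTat

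Both strands of the 250 bases before each of 32851 RefSeq starts were searched for 6 motifs. A member was counted when any of its starts had the motif, and 10 of the 37 have several starts. The counts of members and the shares of single starts are thus not like for like. CCAAT was found before 16 of the 37 members and 33.8% of all starts, GGGCGG before 19 members and 32.7% of starts, and TATAAA before 5 members and 12.4% of starts. CACGTG, the E-box to which ChREBP and clock factors can bind, was found before Elovl5, Lpin2 and Mlxipl and 6.02% of starts. TCACNCCAC, a sterol response element, was found before Ehhadh and Mlxipl and 1.05% of starts, and the direct repeat before Fabp1 and 0.338% of starts. The capitals in the Acly stretch mark 4 GC boxes, and those in the Fasn stretch mark 3 CCAAT boxes, 2 of which overlap. No match was found before Apoa1 or Elovl6, which says only that these letters are not in this window.

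The first question was where along the lobule each gene is used. Each cell was placed by a score from 7 central and 8 portal landmark genes, none of them a member, and the score was cut into 8 layers from the portal (layer 1) to the central end (layer 8). Genes kept out of the score followed it, since Rgn rose from 385 to 2314 CPM and Arg1 dropped from 1476 to 324 CPM between layers 1 and 8 of the Tom- library. Layer 1 held 2280 Tom- and 407 Tom+ cells, and layer 8 held 515 and 2022. A gene was counted as central or portal when layer 8 and layer 1 differed by at least 1.5-fold in that library. Over all genes compared the median log2 ratio of layer 8 to layer 1 was 0.19 in Tom- and 0.22 in Tom+ cells, while the share taken by Alb fell from 128790 to 79115 CPM in Tom- cells, so log2 values of single genes along the lobule are given relative to that median.

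Some lipid genes were higher at the portal end and others at the central end, but only the portal counts stood out from all genes. In the Tom- library 9 of 39 members compared were portal, against 5.52% of all genes, and 4 were central, against 13.1% of all genes. In the Tom+ library 11 of 40 were portal (background 5.50%) and 7 were central (background 13.8%). The central counts were thus near the share of all genes. With each library centred on its median gene the counts were 11 portal (8.13% of all genes) and 2 central (7.61%) in Tom-, and 12 portal (8.62%) and 2 central (7.27%) in Tom+, and the members still central were Acot1 and Apoa1. On that scale 12 of the 78 ratios changed sign, all from slightly central to slightly portal: those of Srebf1, Gpam, Dgat1, Apoa2, Acadm, Cpt1a and Apob in Tom- and of Fabp1, Acadm, Cpt1a, Cpt2 and Apob in Tom+ cells. On the CPM scale the 9 portal genes of the Tom- library were all portal in Tom+, where Elovl5 and Pnpla3 were counted as well. Pnpla3 was as steep in Tom- cells, at 5.17-fold against 5.84-fold, but stayed under 10 CPM there and so was not counted. The central genes were Hadha, Bdh1, Acot1 and Apoa1 in Tom- and Ppara, Lpin2, Pnpla2, Hadhb, Bdh1, Acot1 and Apoa1 in Tom+, where Hadha was just under the limit at 1.44-fold. In Tom- cells Ppara (1.43-fold), Pnpla2 (1.42-fold), Hadhb (1.41-fold) and Lpin2 (1.36-fold) were higher in layer 8 as well, under the limit. The share of all genes counted in 1 library alone is not given, so these differences between libraries cannot be read as being about the members.

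**Figure D1:**
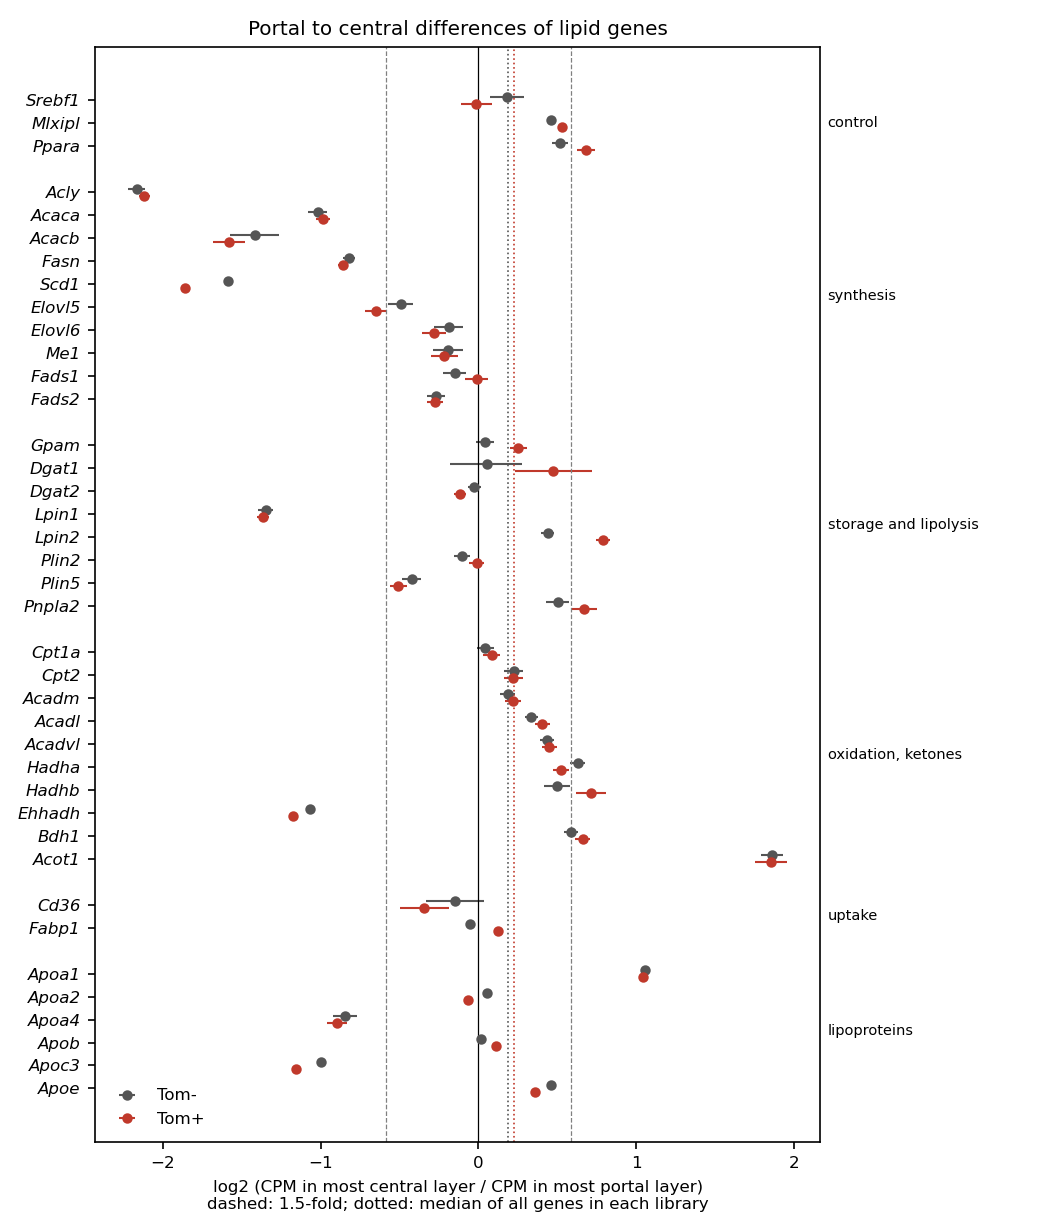
Log2 ratio of the most central to the most portal layer for the 39 members with enough counts, in Tom- (grey) and Tom+ (red) hepatocytes; bars are 95% counting intervals, dashed lines mark 1.5-fold and dotted lines the median of all genes in each library. Acly, Scd1, Acacb, Lpin1 and Ehhadh lie far to the portal side in both libraries, while Acot1 and Apoa1 lie far to the central side.

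Enzymes of fatty acid synthesis were portal or flat. All 10 with enough counts were lower in layer 8 than in layer 1 in both libraries, with medians of -0.66 in Tom- and -0.75 in Tom+ on the log2 CPM scale. Acly, which splits citrate into acetyl-CoA (mm10 chromosome 11, 100476353 to 100528000), had the steepest gradient, from 780 to 174 CPM in Tom- and from 824 to 190 CPM in Tom+ cells. Relative to the median gene this was a log2 ratio of -2.35 and -2.34, and most of the fall lay between layers 3 and 6. Scd1, the stearoyl-CoA desaturase, dropped from 2420 to 805 CPM in Tom- and from 3065 to 845 CPM in Tom+ cells. Its Tom- level was highest in layer 3 at 2864 CPM, whereas in Tom+ cells layers 1 and 4 were alike at 3065 and 3041 CPM. Acacb, the mitochondrial acetyl-CoA carboxylase that also restrains oxidation, dropped from 60.1 to 22.5 CPM in Tom- and from 75.1 to 25.1 CPM in Tom+ cells. Acaca, the cytosolic carboxylase that feeds synthesis, dropped less, from 291 to 143 CPM and from 330 to 167 CPM.

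Fasn, the fatty acid synthase (chromosome 11, 120805846 to 120824547), went from 596 to 338 CPM in Tom- and from 703 to 388 CPM in Tom+ cells, a relative log2 ratio of -1.01 and -1.08. The gradient was thus steeper for the enzyme that makes acetyl-CoA than for the synthase in both libraries. Elovl5, an elongase of polyunsaturated fatty acids, passed 1.5-fold on the CPM scale in Tom+ cells alone, at 1.57-fold against 1.41-fold in Tom-. Relative to the median gene its log2 ratio was -0.68 in Tom- and -0.87 in Tom+, past 1.5-fold in both. Elovl6, which extends palmitate, went from 76.2 to 66.8 CPM and from 103 to 84.8 CPM. Me1 (malic enzyme, a source of NADPH), Fads2 and Fads1 (desaturases of polyunsaturated fatty acids) differed by at most 1.21-fold between the ends in either library. Elovl3 had 8 UMIs in all Tom- and 21 UMIs in all Tom+ hepatocytes and was not compared.

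**Figure D2:**
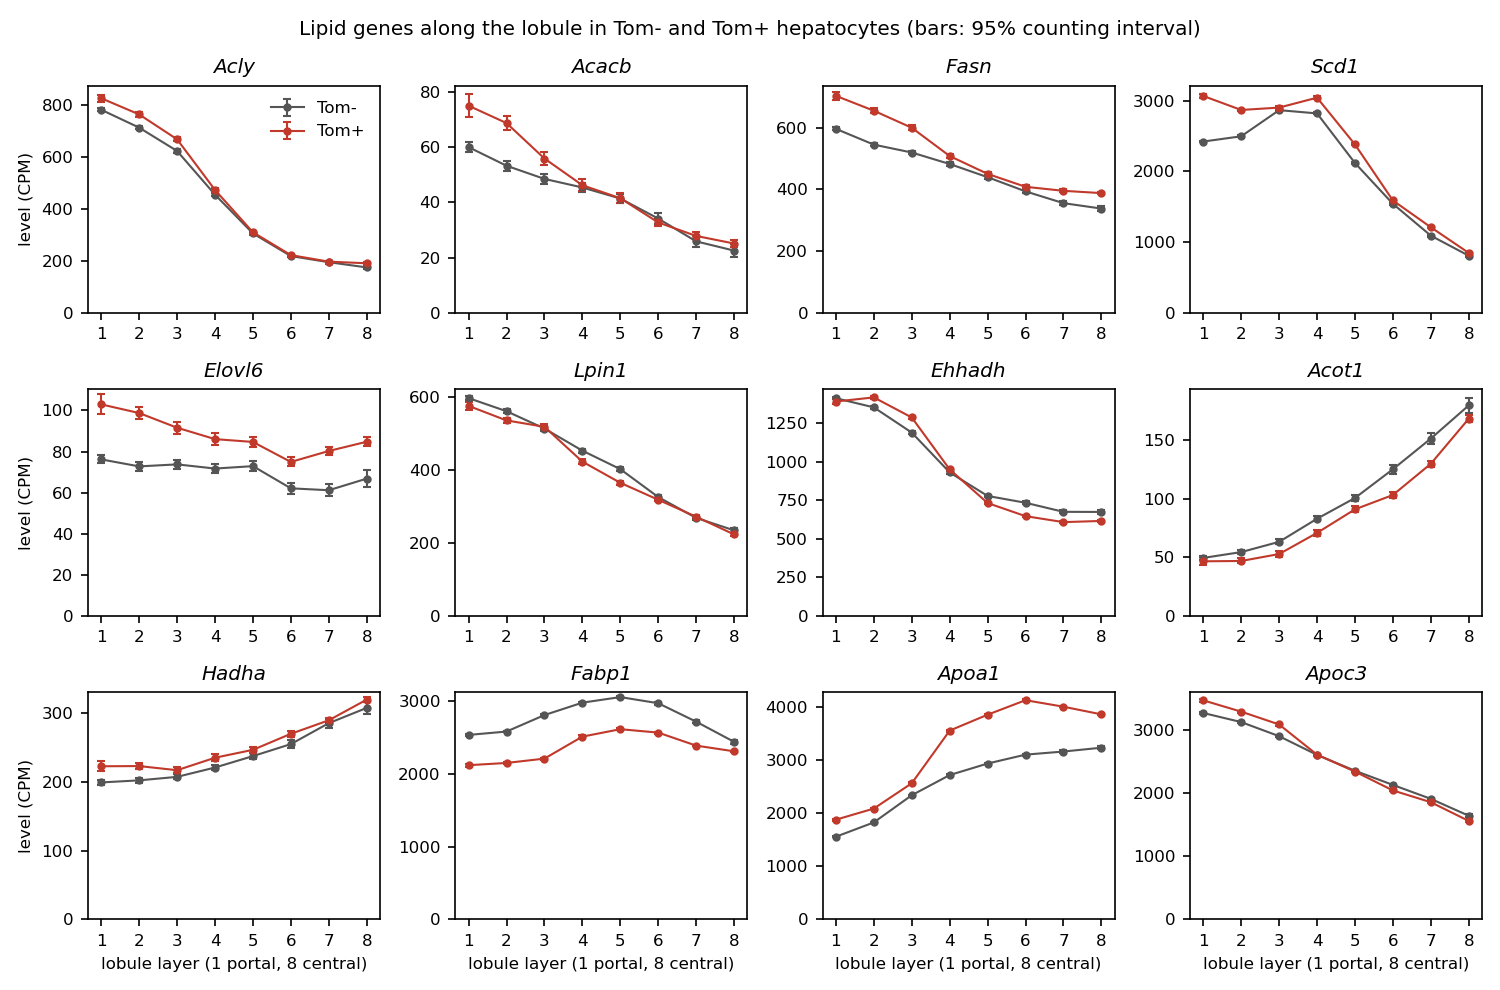
CPM of 12 lipid genes in layers 1 (portal) to 8 (central) of Tom- (grey) and Tom+ (red) hepatocytes, 1 library each, with 95% Poisson intervals and axes from 0. Acly, Acacb, Fasn, Lpin1, Ehhadh and Apoc3 fall towards the centre, Acot1, Hadha and Apoa1 rise, and Fabp1 peaks in layer 5 at 3060 CPM in Tom- and 2617 CPM in Tom+ cells.

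Among genes of storage, the lipin family split. Lpin1, a phosphatidate phosphatase, was portal, with 597 CPM in layer 1 and 235 CPM in layer 8 of Tom- cells and 576 and 223 CPM in Tom+ cells. Its relative Lpin2 went the other way, from 295 to 399 CPM in Tom- and from 260 to 449 CPM in Tom+ cells, a relative log2 ratio of 0.25 and 0.57. Pnpla2, the main triglyceride lipase, rose from 80.9 to 115 CPM and from 79.6 to 127 CPM. Plin5, a droplet protein that links droplets to mitochondria, dropped from 223 to 166 CPM and from 209 to 147 CPM. Plin2, the general droplet coat protein, Gpam, which starts glycerolipid synthesis, and Dgat2, which completes triglycerides, differed by at most 1.19-fold between the ends. Dgat1, the other acyltransferase for that step, stood at 11.5 and 11.9 CPM in the outer layers of Tom- and 9.57 and 13.3 CPM in those of Tom+ cells, and its Tom- interval included no difference. Pnpla3, a lipase known for a human variant linked to fatty liver, was too low to enter most counts, at 7.53 to 1.43 CPM in Tom- and 10.3 to 1.76 CPM in Tom+ cells. Cidec, a droplet fusion protein, was at 0.32 and 0.49 CPM at matched position and was not compared.

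Genes of mitochondrial oxidation leaned to the centre, as the median of all genes did. The 10 oxidation genes had medians of 0.38 in Tom- and 0.43 in Tom+, and 9 of 10 were above 0 in each library, against 5823 of 7974 and 6109 of 8016 genes overall. Hadha and Hadhb, the subunits of the trifunctional protein, are neighbours on chromosome 5. Hadha rose from 199 to 308 CPM in Tom- and from 223 to 320 CPM in Tom+ cells, and Hadhb from 64.7 to 91.4 CPM and from 57.1 to 93.6 CPM. Bdh1, which makes 3-hydroxybutyrate, rose from 221 to 333 CPM and from 222 to 350 CPM. The acyl-CoA dehydrogenases, which start each round of oxidation, had relative log2 ratios of 0.25 and 0.23 for Acadvl (very long), 0.15 and 0.18 for Acadl (long) and 0.00 and 0.00 for Acadm (medium). Cpt1a, which admits fatty acids to mitochondria, was nearly flat on the CPM scale at 203 and 210 CPM in Tom- and 190 and 202 CPM in Tom+ cells, and Cpt2, which acts after it, was within 0.04 of the median gene.

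The members with the strongest gradients in this group were not enzymes of the mitochondrial spiral. Ehhadh, the peroxisomal bifunctional enzyme, was portal, at 1414 and 675 CPM in the outer layers of Tom- cells and 1392 and 616 CPM in those of Tom+ cells. Acot1, a cytosolic acyl-CoA thioesterase induced by PPARα (chromosome 12, 84009490 to 84018371), was central, rising from 49.4 to 179 CPM in Tom- and from 46.5 to 168 CPM in Tom+ cells in each step from layer 1 to 8. Its relative log2 ratio was 1.68 and 1.63. Acot1 has close relatives beside it in the genome, so its probe counts may not be its own alone. Ppara itself rose from 163 to 234 CPM and from 151 to 242 CPM. Mlxipl, which encodes ChREBP, was highest in layer 5 of Tom- (1374 CPM) and layer 6 of Tom+ cells (1476 CPM), and Srebf1 went from 47.4 to 53.7 CPM in Tom- and from 59.9 to 59.4 CPM in Tom+ cells.

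Apolipoprotein genes divided as well. Apoa1, the main protein of high density lipoprotein (chromosome 9, 46228580 to 46230466), rose from 1557 to 3239 CPM in Tom- and from 1878 to 3868 CPM in Tom+ cells, with its Tom+ maximum of 4136 CPM in layer 6. Its neighbours on the same chromosome went the other way. Apoc3, which slows clearance of triglyceride-rich particles (46232933 to 46235636), dropped from 3277 to 1643 CPM and from 3478 to 1560 CPM, and Apoa4 (46240696 to 46243459) from 168 to 93.4 CPM and from 180 to 96.7 CPM. Relative to the median gene the log2 ratios in Tom- and Tom+ cells were 0.87 and 0.82 for Apoa1, -1.18 and -1.38 for Apoc3, and -1.03 and -1.12 for Apoa4. Apob, the structural protein of very low density lipoprotein, was flat at 1662 and 1683 CPM and at 1657 and 1790 CPM. Apoe rose from 17332 to 23848 CPM and from 16716 to 21412 CPM. Apoa2 peaked inside the lobule, at 17875 CPM in layer 6 of Tom- and 16392 CPM in layer 5 of Tom+ cells. Of the uptake genes, Fabp1, the liver fatty acid binding protein, also peaked inside, and Cd36, a fatty acid translocase, stood between 16.5 and 26.5 CPM in every layer of both libraries. In the cluster with the highest Pecam1, an endothelial gene, Cd36 was at 227 CPM in Tom- and 263 CPM in Tom+ cells, and the part of such RNA in the hepatocyte level was not tested.

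The second question was whether Tom+ and Tom- hepatocytes differ at the same place in the lobule. For each library the CPM of the 8 layers was averaged with equal weight, and a member was counted at a log2 ratio of 0.3 or more in either direction. The study used 0.3 for its single-cell comparisons, but between cells of clusters and together with an adjusted p-value. The counts here are thus not like for like with its own. Of the members, 39 had at least 10 CPM in either average and 20 UMIs. Elovl6 and Apoa1 were counted as higher in Tom+ cells, against 1.95% of 7761 genes, and 0 members as lower, against 0.528% of genes. The median log2 ratio of the 39 members was 0.03, and that of all genes -0.01. The other members compared lay inside the limit. After thinning to 5000 UMIs a cell neither was counted, with Elovl6 at 0.29 and Apoa1 at 0.25, and Apoa1 also fell short with a mean over cells (0.23) or with clusters of few genes kept (0.27).

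**Figure D3:**
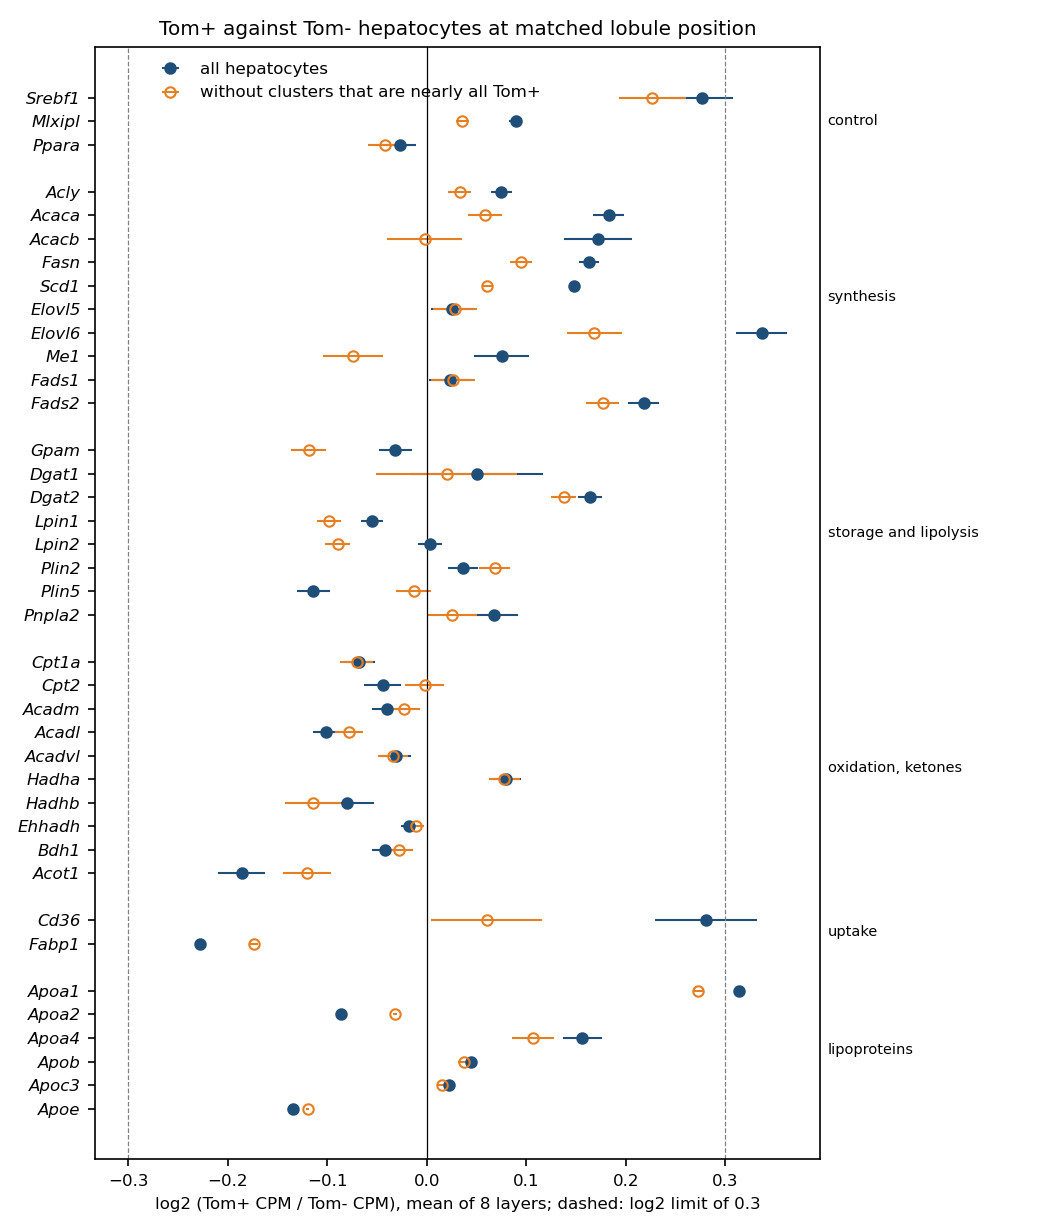
Log2 ratio of Tom+ to Tom- CPM averaged over 8 lobule layers for 39 members (blue), and the same without the clusters that were nearly all Tom+ (open orange); bars are 95% counting intervals and dashed lines the limit of 0.3. Elovl6 and Apoa1 lie past the limit with all hepatocytes and inside it without those clusters.

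Elovl6 (chromosome 3, 129532355 to 129638495) measured 69.7 CPM in Tom- and 88.0 CPM in Tom+ cells, log2 0.34 (0.31 to 0.36), and was higher in Tom+ in 8 of 8 layers. Apoa1 measured 2612 and 3247 CPM, log2 0.31 (0.31 to 0.32), also higher in 8 of 8 layers. Its ratio was 0.26 over the portal layers 1 to 4 and 0.35 over the central layers 5 to 8. Without the clusters that were nearly all Tom+, Elovl6 stood at 69.4 and 78.0 CPM (log2 0.17) and Apoa1 at 2610 and 3153 CPM (log2 0.27), so that 0 members were counted as higher, against 1.14% of genes, and 0 as lower, against 0.376%. Elovl6 therefore kept about as much ratio outside those clusters as it lost with them, while most of the Apoa1 ratio was found outside them.

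The other enzymes of synthesis shared the direction of Elovl6 at smaller size. All 10 were above 0, where 3567 of all 7761 genes were, with a median log2 ratio of 0.16. Without those clusters 8 were above 0, where 2887 of 7720 genes were, and the median was 0.05 against -0.03 for all genes. Fads2 (193 and 224 CPM), Acaca (199 and 226 CPM), Acacb (41.4 and 46.7 CPM), Fasn (459 and 513 CPM) and Scd1 (2018 and 2236 CPM) lay between 0.15 and 0.22. Acly (432 and 455 CPM), Me1 (65.4 and 68.9 CPM), Elovl5 (111 and 113 CPM) and Fads1 (112 and 114 CPM) lay between 0.02 and 0.08. Without those clusters Fads2 was at 0.18, Fasn at 0.09, Acaca and Scd1 at 0.06, Acly, Elovl5 and Fads1 at 0.03, Acacb at 0.00 and Me1 at -0.07. Of the controlling genes, Srebf1, which encodes SREBP1, measured 47.5 and 57.5 CPM, log2 0.28 (0.24 to 0.31), which was 0.23 without those clusters. Its ratio was 0.39 in the portal and 0.17 in the central layers. Mlxipl was at 1176 and 1251 CPM (0.09, and 0.04 without those clusters), and Ppara at 193 and 190 CPM (-0.03, and -0.04 without).

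Oxidation genes were close to equal. Of the 10, 9 were below 0, where 4194 of all 7761 genes were, with a median log2 ratio of -0.04 against -0.01 for all genes, and Hadha alone was above 0, at 240 and 253 CPM (0.08). Acot1 had the lowest ratio of the group, with 101 CPM in Tom- and 88.5 CPM in Tom+ cells, a log2 ratio of -0.19 (-0.21 to -0.16), and was lower in Tom+ in each layer. Acadl was at 310 and 289 CPM (-0.10), Hadhb at 74.1 and 70.1 CPM (-0.08) and Cpt1a at 209 and 199 CPM (-0.07). The remaining 5 (Cpt2, Acadm, Acadvl, Ehhadh and Bdh1) lay between -0.04 and -0.02. Without the clusters that were nearly all Tom+, Acot1 was at -0.12, Hadhb at -0.11, Acadl at -0.08, Cpt1a at -0.07 and Hadha at 0.08, and the remaining 5 lay between -0.03 and 0.00.

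Fabp1 had the lowest ratio of all members, 2764 CPM in Tom- and 2361 CPM in Tom+ cells (log2 -0.23, -0.23 to -0.22), and was lower in Tom+ in each of the 8 layers. It was at -0.28 in the portal and -0.18 in the central layers, and at -0.17 without those clusters. Cd36 was at 18.0 and 21.8 CPM (0.28), which became 0.06 without them. In storage, Dgat2 was at 329 and 369 CPM (0.16, and 0.14 without them) and Plin5 at 191 and 176 CPM (-0.11, and -0.01 without those clusters). Gpam, Lpin1, Lpin2, Plin2, Dgat1 and Pnpla2 lay between -0.05 and 0.07. Without those clusters Gpam was at -0.12, Lpin1 at -0.10, Lpin2 at -0.09, Plin2 at 0.07, Pnpla2 at 0.03 and Dgat1 at 0.02. Of the lipoprotein genes other than Apoa1, Apoa4 was at 124 and 138 CPM (0.16), Apoe at 19964 and 18184 CPM (-0.13) and Apoa2 at 15676 and 14766 CPM (-0.09). Apob (0.04) and Apoc3 (0.02) were nearly equal. Without those clusters Apoa4 was at 0.11, Apoe at -0.12, Apoa2 at -0.03, Apob at 0.04 and Apoc3 at 0.02.

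Matching by layers was not exact. Of the 8 portal genes in the score, all but Pck1 (log2 -0.12) were higher in Tom+ cells, led by Cyp2f2 (0.41) and Aldh1b1 (0.40). Of the 7 central ones, Oat (0.47), Glul (0.10) and Cyp1a2 (0.01) were higher. Lower were Slc1a2 (-0.24), Rhbg (-0.16), Gulo (-0.11) and Cyp2e1 (-0.06). Of portal genes kept out of the score, Arg1 (0.25) and Cps1 (0.12) were higher, and Sfxn1 (-0.04) and Cdh1 (-0.16) lower. Of such central genes, Rgn (0.05) and Slc13a3 (0.01) were higher, and Lect2 (-0.04), Lgr5 (-0.22), Tbx3 (-0.24) and Axin2 (-0.29) lower. Most portal landmarks were thus higher and most central ones lower in Tom+ cells. The largest of these ratios are as large as those of the members, and their part in the members' ratios was not tested. Markers of endothelial (8 of 8 genes), stellate (8 of 8) and immune cells (10 of 10) were lower in Tom+ cells. Their summed levels in Tom- and Tom+ cells were 58.4 and 45.8, 42.5 and 37.4, and 56.4 and 41.9 CPM. Those of cholangiocytes were lower for 3 of 5 genes, with 8.06 and 7.62 CPM, and none of these markers was at 0 in both libraries. Leaving out the highest 10% of non-hepatocyte RNA moved the members' Tom+ ratios by at most 0.020, with 0 sign changes. The part of the RNA that remained was not tested. The clock output genes Dbp (8.24 and 21.9 CPM) and Per3 (12.7 and 21.7 CPM) were higher in Tom+ cells, with log2 ratios of 1.41 and 0.77, which were 0.56 and 0.27 without the clusters that were nearly all Tom+. Of the other clock genes, Per2 was at 0.40, Tef at 0.38, Arntl at 0.09, Nr1d2 at -0.02, Nr1d1 at -0.03 and Npas2 at -0.40, and several lipogenic genes are known to follow feeding and the clock. Whether the libraries were collected at the same hour is not given in the sources used here, and this and the reporter cannot be told apart.

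The clusters that were nearly all Tom+ were then set against the other Tom+ hepatocytes of the same layers. They had been found from the expression of all genes, members included, so these values describe them and test nothing. As one is a central and the other a portal cluster, the values of portal and central layers need not come from the same cluster. In portal layers 1 to 3 they held 441 cells, with a median of 35962 UMIs, and were set against 1990 other Tom+ cells with 37417. In central layers 4 to 8 they held 1561 cells (34734 UMIs) and were set against 5975 (34867 UMIs). Their tdTomato level was lower than in the other Tom+ cells, at 626 against 695 CPM in portal and 744 against 852 CPM in central layers. In the portal layers 9 members were at least 0.3 log2 higher there, where 12.0% of genes were, and 4 lower, where 4.43% were. In the central layers 11 were higher, where 22.3% of genes were, and 4 lower, where 2.43% were.

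In central layers 6 of the 10 enzymes of synthesis passed the limit over the other Tom+ cells, where 22.3% of all genes did. Scd1 (0.27), Fads2 (0.24), Elovl5 (0.02) and Fads1 (-0.02) did not. The ratios of this comparison were not centred on the median gene. Elovl6 was at 71.0 CPM in other Tom+ cells and 129 CPM in these clusters (log2 0.87), Acaca at 158 and 279 CPM (0.82), Acacb at 30.7 and 51.9 CPM (0.76), Me1 at 57.3 and 95.2 CPM (0.73), Acly at 251 and 391 CPM (0.64) and Fasn at 401 and 549 CPM (0.46). Tom- cells of the same layers were at 66.9 CPM for Elovl6 and 161 CPM for Acaca, near the other Tom+ cells. In portal layers Acacb (58.6 and 103 CPM, 0.81), Elovl6 (89.6 and 135 CPM, 0.59), Scd1 (2706 and 3947 CPM, 0.54) and Me1 (70.1 and 99.7 CPM, 0.51) were higher, as were Srebf1 (58.2 and 74.7 CPM, 0.36) and Acaca (288 and 366 CPM, 0.34), but Acly was at 761 and 716 CPM (-0.09). Mlxipl was higher on both sides, by 0.34 and 0.31, as was Lpin2, by 0.32 and 0.49. Gpam was at 0.29 in portal and 0.46 in central layers, and Apoa4 at 0.08 and 0.41.

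**Figure D4:**
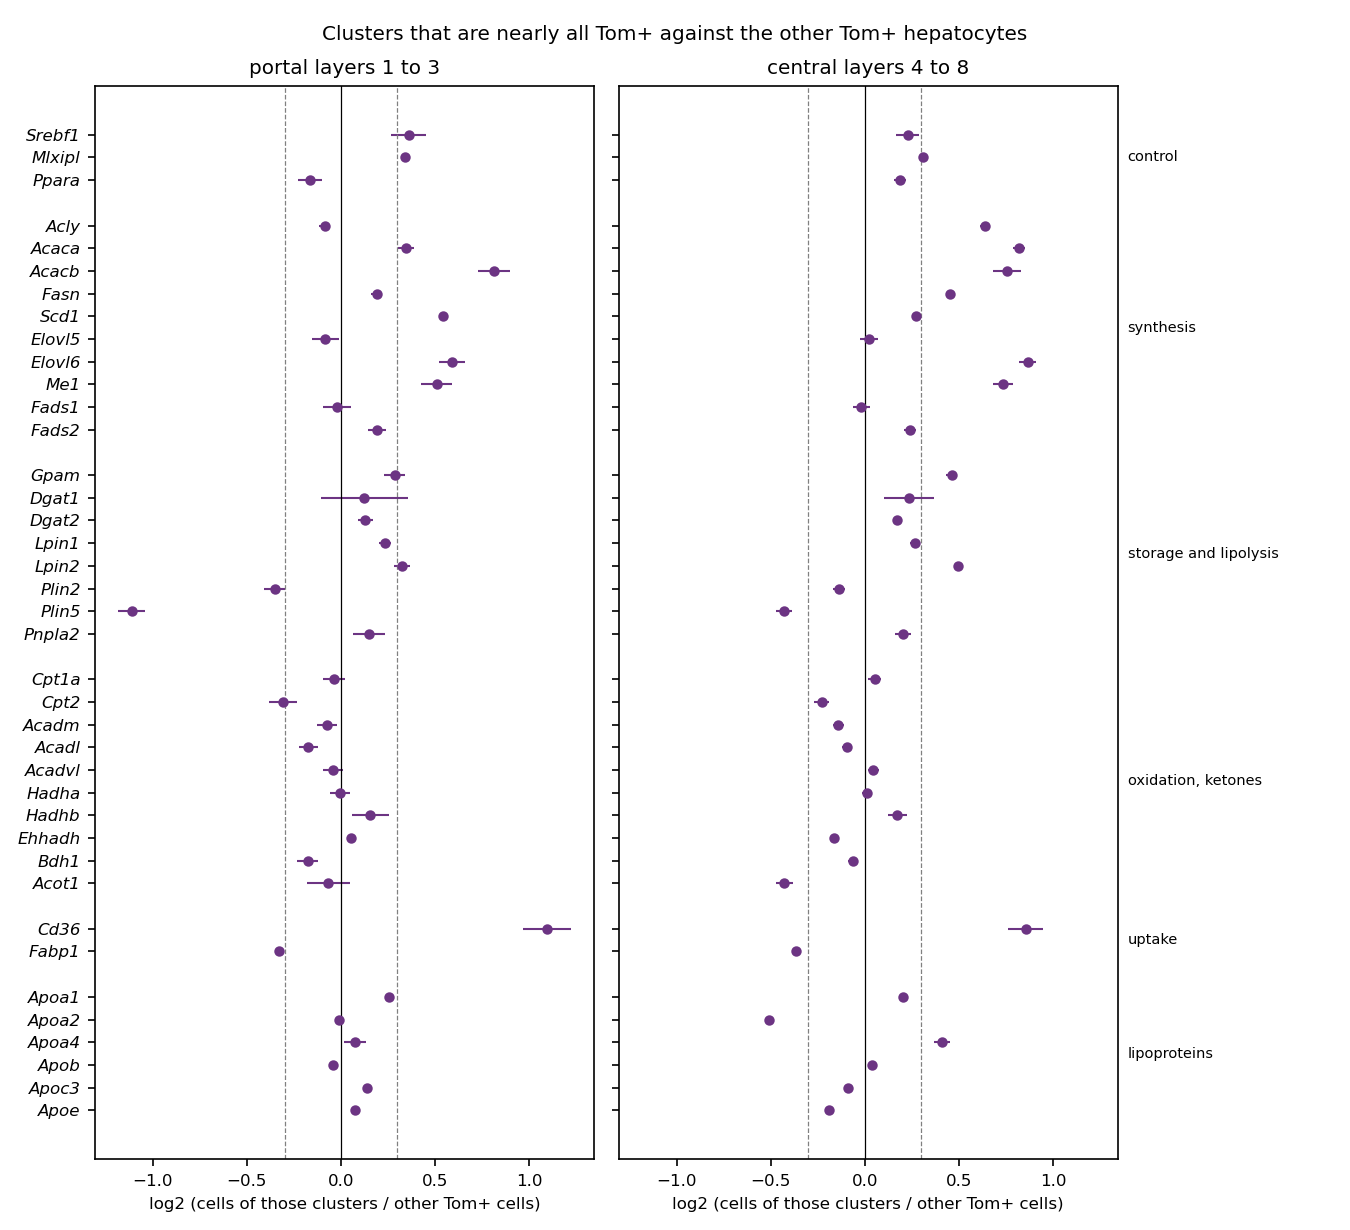
Log2 ratio of the clusters that were nearly all Tom+ to the other Tom+ hepatocytes, in portal layers (left) and central layers (right), for 39 members with 95% counting intervals; dashed lines mark 0.3. Most synthetic enzymes and Cd36 lie to the right on both sides, and Plin5 and Fabp1 to the left.

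Cd36 had the highest portal ratio of the members with enough counts, 21.3 CPM in other Tom+ cells and 45.5 CPM in these clusters (1.10), and 17.0 and 30.8 CPM in central layers (0.85). The summed endothelial markers were 48.3 and 42.1 CPM in the portal and 44.8 and 45.3 CPM in the central layers, and the summed immune markers were 34.4 and 40.6 CPM and 46.8 and 41.7 CPM. Cd36 stood at 167 CPM in Tom- and 144 CPM in Tom+ cells of the cluster with the highest Ptprc, an immune gene, and the part of such RNA was not tested. Plin5 was the lowest member in portal layers, at 225 and 104 CPM (-1.11), and was at 168 and 125 CPM in central layers (-0.43). Fabp1 was lower on both sides, at 2243 and 1785 CPM (-0.33) and at 2582 and 2007 CPM (-0.36). Plin2 (-0.35) and Cpt2 (-0.31) passed the limit in portal layers, and Acot1 (119 and 88.5 CPM, -0.43) and Apoa2 (16278 and 11443 CPM, -0.51) in central ones. Apoa1 was above the other Tom+ cells by 0.26 and 0.20, under the limit. Dbp was at 14.1 and 61.6 CPM in portal and 10.3 and 64.6 CPM in central layers, a larger ratio than that of any member.

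A wider list of 89 genes of the same pathways was read in the same way, and 85 passed the filter on low values. Of these 5 were higher (1.95% of all genes) and 3 lower (0.528%) in Tom+ cells at matched position, with a median log2 ratio of -0.04. Without the clusters that were nearly all Tom+, 3 were higher (1.14% of all genes) and 0 lower (0.376%). Among 20 other lipogenic genes 8 were above 0 and 12 below, with a median of -0.03. Thrsp, a lipogenic gene induced by thyroid hormone and carbohydrate, had 631 and 829 CPM (0.39, and 0.24 without those clusters). Scap, which escorts SREBP, had 102 and 126 CPM (0.31, and 0.32 without them), while Acsl3 and Agpat2 were lowest at -0.19 and -0.18. Among 30 other oxidation genes, the peroxisomal thiolases Acaa1a (61.5 and 76.9 CPM, 0.32, and 0.31 without those clusters) and Acaa1b (88.4 and 109 CPM, 0.31, and 0.23 without) were highest. These are near copies of each other and their counts may be shared. Cyp4a14 (598 and 479 CPM, -0.32, and -0.26 without those clusters) and Cyp4a10 (698 and 616 CPM, -0.18), fatty acid hydroxylases, were lowest. Both were central on the CPM scale, as Acaa1b was.

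Of 10 other droplet and lipase genes, Plin4 was lowest (110 and 84.5 CPM, -0.39, and -0.29 without those clusters), followed by Lipa, the lysosomal lipase (-0.20), and G0s2 (0.15) and Hsd17b11 (0.08) were highest. Of 25 other lipoprotein and uptake genes, Lpl, the lipoprotein lipase, was lowest at 39.8 and 31.1 CPM (-0.36, and -0.21 without those clusters), followed by Lipc, the hepatic lipase, at -0.13, and Apoh was at 41.1 and 48.9 CPM (0.25). Along the lobule, 11 of the 30 oxidation genes were central and 1 was portal in each library, and 6 of the 20 lipogenic genes were portal and 1 central in each, against 13.1% of all genes central and 5.52% portal in Tom- and 13.8% and 5.50% in Tom+. Centred on the median gene, 8 oxidation genes were central in Tom- and 7 in Tom+ (7.61% and 7.27% of all genes), and 8 and 9 lipogenic genes were portal (8.13% and 8.62%).

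Cells of 1 layer were also compared with each other, after thinning each to 5000 UMIs, which left out 41 Tom- and 31 Tom+ cells. The variance within layers divided by the mean is 1 for counting noise alone. It was between 1.00 and 1.09 for 9 of the 10 oxidation genes in both libraries, with 1.54 and 1.55 for Ehhadh. It was above 4 for Scd1 (4.57 in Tom- and 5.41 in Tom+), Apoa1 (4.63 and 4.40), Apoa2 (4.92 and 5.22) and Apoe (6.84 and 6.27), and 1.30 and 1.48 for Fasn. A ratio above 1 is easier to see in genes with more counts, as these had. Other members with many counts had lower ratios: Apob 1.10 in both libraries, Apoc3 1.64 and 1.77, Fabp1 2.16 and 2.13, and Mlxipl 2.98 and 2.88. Of 253 pairs among the 23 members with a mean of at least 1 UMI, 2 had a correlation of at least 0.3 in both libraries, Apoa2 with Apoe (r = 0.67 over 10863 Tom- and 0.54 over 9936 Tom+ cells) and Fabp1 with Apoa2 (0.33 and 0.30). A further 2 pairs were as strongly negative, Mlxipl with Apoe (-0.48 and -0.40) and Mlxipl with Apoa2 (-0.45 and -0.31). The cells share a library and a fixed depth, so abundant genes take counts from each other, and the median r over pairs was 0.00 in both libraries.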

How the data were processed

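Hepatocytes of 1 Tom- and 1 Tom+ library were profiled with a probe-based fixed RNA kit. The deposited values are raw UMI counts per gene and cell, which the authors made with Cell Ranger 7.2.0 on mm10 per the labels and paper. Counts come from probes that differ in efficiency, which means that levels cannot be ranked between genes and that near relatives can share counts.

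Following the study's filters, cells with a mitochondrial share up to 0.05, 2000 to 10000 genes and at most 100000 UMIs were kept (20159 of 23220 Tom- and 13378 of 16339 Tom+ barcodes). Cells were clustered with scanpy 1.11.5 (2000 variable genes, 30 components, 20 neighbours, Leiden resolution 0.8), and clusters with few genes or with high Ptprc, Dcn or Pecam1 were removed. This removal was unequal, since 54.1% of the filtered Tom- and 74.5% of the filtered Tom+ cells were kept. The largest cluster removed, for few genes, held 4242 Tom- and 419 Tom+ cells. Keeping clusters with few genes moved members' ratios between libraries by up to 0.12. Scrublet marked 1 Tom- and 0 Tom+ cells at a set doublet rate of 0.1, so its calls were not relied on and no doublets were removed. Its scores served to leave out the highest 10% as an alternative, and whether they track doublets was not tested. UMIs were summed per library and layer. The lobule score is the share of scaled central signal in central plus portal signal, cut so that layers are of equal size when the libraries weigh alike. A gene was compared when it had at least 10 CPM in either sum and 20 UMIs, with 0.5 UMI added for ratios. Intervals (95%, Poisson for levels) treat UMIs as independent. Of the cells, 22.7% lay within 0.01 of a layer cut, and 53.2% stayed in their layer after thinning to 5000 UMIs (93.9% within 1 layer).

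All members are accounted for. From each list of other pathway genes the 2 highest and 2 lowest Tom+ ratios were named, except for 1 result that is not reported here. List medians of the Tom+ ratio were -0.03 for lipogenesis, -0.07 for oxidation, -0.04 for droplets and 0.00 for lipoproteins. The members and lists were chosen with earlier results of these data known. Calculations were checked on simulated counts and used Python 3.11.15, numpy 2.4.6, scipy 1.17.1 and pandas 2.3.3.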

Additional observations from a re-analysis of the deposited data

Results flagged for a closer look

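For 5 members the Tom+ to Tom- log2 ratio had opposite signs in the portal layers 1 to 4 and the central layers 5 to 8, with counting intervals that left out 0 on both sides, and the difference between these ends was not tested. Lpin2 was at -0.13 in the portal and 0.11 in the central layers, Ppara at -0.11 and 0.038, and Gpam at -0.090 and 0.023. Ehhadh was at 0.047 in the portal and -0.14 in the central layers, and Apoc3 at 0.066 and -0.043. Dgat1 and Elovl5 also had opposite signs, with an interval that included 0 on 1 side. All of these lie inside the limit of 0.3.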

How the results depend on the processing

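The count of members higher in Tom+ (2) became 0 after thinning to 5000 UMIs and without the clusters nearly all Tom+, 1 with a mean over cells or with clusters of few genes kept, 4 when cells were matched by named clusters and 5 with no CPM minimum. It became 3, with Cd36 added at 0.30, when clusters led by stellate or duct genes, the highest 10% of non-hepatocyte RNA or the highest 10% of doublet scores were left out. The count of members lower stayed at 0 under each alternative run. The count of central members in Tom+ (7) became 4 after thinning, and with median-of-ratios scaling it became 2, as did that in Tom- (4). Pairs of members that varied together (2) became 4 after thinning to 10000 UMIs and 1 without the clusters nearly all Tom+. The cause of these shifts was not tested. The shares of all genes under most of these alternatives are not given, so the shifts cannot be read as being about the members. Of the Tom+ ratios under alternatives 189 moved by more than their counting interval and 483 did not, and of the lobule ratios 376 and 968. No paired analysis was possible because there is no second library in either fraction. Leaving out shared barcodes, leaving out clusters led by stellate or duct genes, using the outermost 2 layers at each end, and median-of-ratios scaling of the lobule ratios were chosen after seeing the data. Depth limits Elovl3, Cidec and Pnpla3.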
